A study of Mus musculus with 12 samples.

Results

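Connexins are the proteins of gap junctions, and 8 of the 20 mouse connexin genes are described here: Gja1, Gja3, Gja4, Gja5, Gjb1, Gjb2, Gjb6 and Gjc1. They were taken by symbol from gene-level count tables of 56262 identifiers (lung) and 54532 identifiers (alveolar cells). They were chosen by their symbols with their levels in tumour, adjacent lung and alveolar cells known. The members were thus in effect selected on the tumour and adjacent values, which are a description here. Between tumour and adjacent lung no p is given for a single member, and nothing is read from the count of members that passed. Other genes of the family, which the choice did not use, are given with their test where reported. Of the 8 genes, all passed the filter on low counts in the lung table, Gja3 through its tumour libraries alone, and 4 (Gja1, Gjb1, Gjb2 and Gjb6) passed it in the alveolar cells.

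Connexin subunits assemble into a ring in the membrane, and rings of neighbouring cells dock to form a channel that passes ions and small molecules. Cells differ in the subunits they make. Gja1 is the most widely expressed member, and in the lung it joins alveolar epithelial cells and also endothelial cells. Gja4 and Gja5 are the connexins of endothelium, Gja5 mainly that of arteries and of heart muscle, and Gjc1 is found in smooth muscle and in the conducting system of the heart. Gjb1 is the main liver connexin, Gjb2 and Gjb6 are partners in the inner ear and in skin, and Gja3 is known for the fibre cells of the eye lens.

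All animals were C57BL/6 mice, and the series concerns deletion of Med23, a Mediator subunit, in T cells. Lung tumours and adjacent lung came from the same 3 knockout mice (102, 217 and 224) at 18 months of age, so tumour and adjacent lung share that genotype and no wild-type lung tissue was included. Alveolar type 2 (AT2) cells make surfactant in the lung, and here they were sorted from mice 6 months old, of which 3 were wild type (176, 177 and 190) and 3 carried the T-cell knockout (175, 179 and 191). The labels name neither the Cre line behind the deletion nor how the tumours arose.

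The lung libraries held 65163100 to 77951014 counts and the AT2 libraries 15943084 to 18913242. Levels are CPM, counts relative to the TMM-scaled total of their library, given as mean ± SD over 3 libraries, and folds between tissues are ratios of those means. A log2 difference is given ± its standard error from edgeR. Among the lung libraries the first principal component, at 52.9% of the variance, ran from adjacent lung to tumour, and the next, with 21.3%, set both libraries of mouse 217 apart from the others. Tumour 217 also had 6.44% mitochondrial counts, against 2.05% to 3.89% in the other lung libraries. Among the AT2 libraries, wild type 177 stood apart, with a score of 64.6 on a component holding 45.6% of the variance where the other 5 lay between -14.6 and -11.3. In every lung library more genes held exactly 4 counts (707 to 906) than exactly 3 (332 to 457), a step that the AT2 libraries lacked. A count of 1 may therefore not be 1 read in lung, and no counting interval is given for it. AT2 marker genes (7) summed to 139236 to 176836 CPM in the AT2 libraries and endothelial markers (10) to 10.3 to 16.5 CPM. Med23 itself, deleted in T cells only, had 27.5 ± 5.65 CPM in tumours, against 27.0 ± 9.29 CPM in adjacent lung, which checks no label.

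The sequences just before the RefSeq transcription starts of Gja3, Gjb2, Gja4 and Gja5 are shown because the tumour and adjacent ranges of these genes did not overlap, 2 lying higher and 2 lower in tumours. Gjc1, whose ranges did not overlap either, had no promoter entry. They are from RefSeq on GRCm38.p6, on the strand of the gene, with matches to the motifs named after them in capitals. The Gja3 sequence (chr14:57058101-57058280, minus strand) ends at the start of the GENCODE transcript, and the 70 bases from there to the RefSeq start are left out. The others are the 250 bases before the start of Gjb2 (chr14:57104703-57104952, minus strand), Gja4 (chr4:127314040-127314289, minus strand) and Gja5 (chr3:97032152-97032401, plus strand).
Gja3: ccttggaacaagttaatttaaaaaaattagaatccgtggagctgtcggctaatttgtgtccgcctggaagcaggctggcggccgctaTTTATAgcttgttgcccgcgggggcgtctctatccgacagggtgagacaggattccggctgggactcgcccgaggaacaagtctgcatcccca
Gjb2: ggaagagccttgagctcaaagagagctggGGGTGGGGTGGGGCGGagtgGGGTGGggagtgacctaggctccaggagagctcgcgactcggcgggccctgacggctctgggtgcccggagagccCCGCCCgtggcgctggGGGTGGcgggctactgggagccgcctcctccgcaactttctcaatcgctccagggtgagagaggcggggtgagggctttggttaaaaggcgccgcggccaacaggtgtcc
Gja4: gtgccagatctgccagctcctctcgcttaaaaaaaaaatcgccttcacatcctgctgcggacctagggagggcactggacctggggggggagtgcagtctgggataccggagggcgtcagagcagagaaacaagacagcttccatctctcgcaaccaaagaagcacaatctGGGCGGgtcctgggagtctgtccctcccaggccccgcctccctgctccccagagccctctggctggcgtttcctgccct
Gja5: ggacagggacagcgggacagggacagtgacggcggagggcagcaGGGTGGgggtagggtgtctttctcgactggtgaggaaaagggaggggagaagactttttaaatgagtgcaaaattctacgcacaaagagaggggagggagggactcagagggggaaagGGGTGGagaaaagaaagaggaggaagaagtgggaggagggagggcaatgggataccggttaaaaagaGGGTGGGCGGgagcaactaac

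Motifs were searched on both strands, and the share of all 32851 mouse promoters of that length that hold them is given with each. The GC box, bound by Sp factors, was searched as GGGCGG (32.7% of promoters) and the site of KLF factors as CCACCC (28.1%). The other motifs were the TATA element as TATAAA (12.4%), the AP-1 site as TGANTCA (6.75%), the NKX2 site as CAAGTG (11.6%) and the T-box site as AGGTGTGA (1.12%). The Gjb2 promoter held 2 GC boxes and 4 KLF sites, 2 of the KLF sites and 1 GC box overlapping in the first capital run. The Gja5 promoter held 1 GC box and 3 KLF sites, and 1 KLF site shared bases with the GC box 17 bases before the start. Gja4 held 1 GC box and the Gja3 entry shown a reversed TATA element. Guanine and cytosine made up 69.2% of the Gjb2, 62.8% of the Gja3, 61.2% of the Gja4 and 56.4% of the Gja5 promoter over the full 250 bases, against a median of 52.4% over all promoters. CpG pairs numbered 18, 26, 9 and 7 in the same order, against a median of 6. Gja3 has another entry, not shown, with 76.0% guanine and cytosine, 29 CpG pairs and no motif match. In the promoters of the other members with an entry, Gja1 held the AP-1 letters as TGAGTCA 19 bases before its start and Gjb6 1 KLF site. Gjb1 has 4 entries, 1 for each start site, which together held 3 GC boxes, 2 KLF sites, 3 NKX2 sites and 1 TATA element, the latter 29 bases before its start. No T-box match lay in any of the 11 promoter entries of 7 members. These matches are letters in a window and were not tested as binding sites.

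Between tumour and adjacent lung, 2 of the 8 members passed the adjusted threshold of 0.05 as higher and 1 as lower, where 2.86% of 19995 genes passed as higher and 7.18% as lower, and 24.0% had an unadjusted p under 0.05. With mouse as a block, with DESeq2 or with library totals alone as scaling, 2 members passed as lower. Only 1 passed as higher without any 1 adjacent library, tumour 102 or both libraries of mouse 217. The tumour and adjacent ranges did not overlap for 5 members, against 30.5% of all genes, 2 above (Gja3 and Gjb2) and 3 below (Gja4, Gja5 and Gjc1), where 11.6% and 18.9% of all genes lay wholly above or below. Nothing is read from these counts, since that contrast chose the genes.

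Gja3 was the member nearest to all-or-none. Its level was 0.0626 CPM in adjacent 102, 0 in adjacent 217 and 0.0665 CPM in adjacent 224, which are 5, 0 and 5 counts. In the tumours it stood at 27.0 CPM (102), 10.9 CPM (217) and 34.5 CPM (224), from 1902, 683 and 2367 counts. Every tumour was therefore far above every adjacent library, and tumour 217 was the lowest of the 3. The means were 24.1 ± 12.1 CPM in tumours and 0.0430 ± 0.0373 CPM in adjacent lung, with a log2 difference of 9.07 ± 1.0. The adjacent level lies at the step in low counts described above, so the size of the difference is uncertain. All 6 AT2 libraries had 0 counts of Gja3, which allows up to 0.0565 CPM over the wild-type and 0.0589 CPM over the knockout libraries (3 counts per group, counting error only).

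Few other genes of the lens had enough counts to be tested. Of 11 genes of the lens, among them crystallins, lens membrane proteins and lens transcription factors, 3 had enough counts to be tested and 0 passed with edgeR (adjusted p 0.118 for Cryaa and 0.371 for Hsf4). Cryaa passed as lower with DESeq2, with limma-voom and in edgeR without tumour 102, and its adjusted p was 0.0101 to 0.253 over the settings tried. The median log2 difference of the 3 was -1.09, beside 0.04 over all genes tested. Cryaa, a lens crystallin, stood at 1.95, 1.34 and 2.04 CPM in adjacent lung (102, 217, 224) and at 0.242, 0 and 0 CPM in the tumours. In the tumours 4 of the 11 genes had 0 counts in every library.

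Gjb2 was also higher in every tumour. Adjacent levels were 5.12 CPM (102), 4.16 CPM (217) and 4.36 CPM (224), and tumour levels were 19.3, 12.0 and 18.7 CPM in the same order. The means of 4.55 ± 0.507 and 16.7 ± 4.03 CPM differed 3.67-fold, a log2 difference of 1.87 ± 0.37. The gap was alike in the 3 mice, at 1.91 (102), 1.53 (217) and 2.09 (224) on the log2 scale. Its partner Gjb6, the next gene along the chromosome, was not higher. Gjb6 stood at 8.72, 2.50 and 4.31 CPM in adjacent lung and at 4.73, 0.764 and 1.75 CPM in the tumours of mice 102, 217 and 224. The tissue ranges of Gjb6 overlapped, although within each mouse the tumour was the lower one, by 0.88, 1.68 and 1.29 on the log2 scale. The means were 5.18 ± 3.20 and 2.41 ± 2.07 CPM, with a log2 difference of -1.10 ± 0.77. It was -2.07 without tumour 102 and -0.47 without adjacent 102, since mouse 102 had the highest level in both tissues. With mouse as a block the Gjb6 difference was -1.29.

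Gjb1, the liver connexin, split the tumours. Adjacent libraries held 2.88 CPM (102), 8.55 CPM (217) and 6.77 CPM (224). Tumour 102 held 41.5 CPM and tumour 217 held 62.8 CPM, while tumour 224 held 0.350 CPM. The tumours of mice 102 and 217 were thus 14.4-fold and 7.35-fold above their own adjacent lung, and the tumour of mouse 224 was 19.4-fold below. The log2 difference of 2.52 ± 1.30 averages tumours that lie on opposite sides of adjacent lung. It was 3.10 without tumour 224, 1.71 without tumour 217, 1.79 with mouse as a block and 0.81 in limma-voom.

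Gja1, the widespread connexin, overlapped between the tissues. Adjacent levels were 61.7, 121 and 133 CPM and tumour levels 151, 119 and 149 CPM in mice 102, 217 and 224. In the tumours it varied little, and adjacent 102 was the one library well below the rest. The means were 105 ± 38.1 CPM and 140 ± 18.1 CPM (log2 difference 0.41 ± 0.36), and within the mice the difference was 1.29 (102), -0.03 (217) and 0.17 (224).

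**Figure D1:**
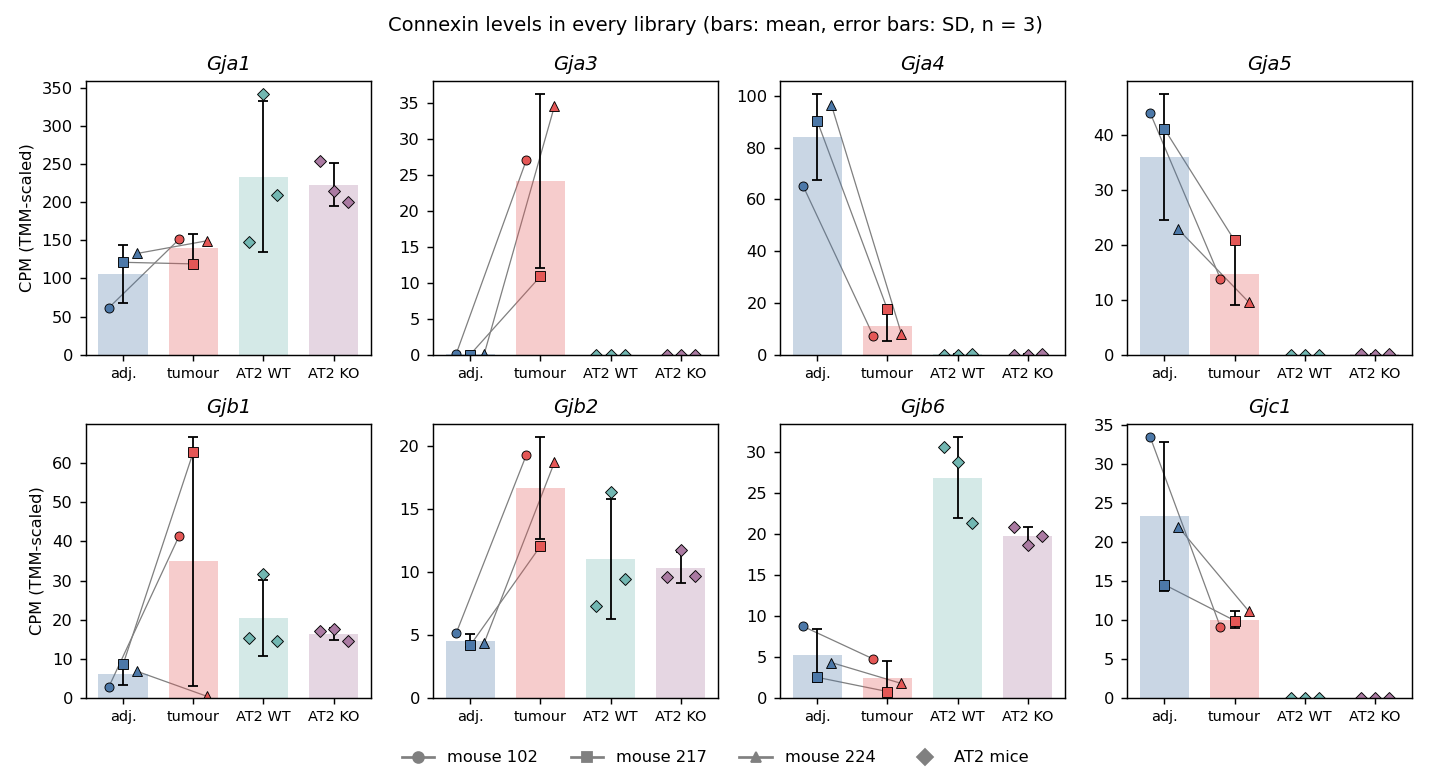
CPM of each of the 8 connexin genes in every library, 1 panel per gene with its own axis, by group (adjacent lung, tumour, wild-type AT2 and knockout AT2, 3 libraries each); points are libraries (lines join the tissues of a mouse), bars group means and error bars SD. Gja3 stood at 10.9 to 34.5 CPM in tumours and at or near 0 elsewhere, while Gja4, Gja5 and Gjc1 were highest in adjacent lung.

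The vascular connexins were lower in tumours. Gja4 stood at 65.1 CPM (102), 90.3 CPM (217) and 96.7 CPM (224) in adjacent lung and at 7.16, 17.5 and 7.97 CPM in the tumours. All tumours lay below all adjacent libraries, with tumour 217 the highest of the 3. The means of 84.0 ± 16.7 and 10.9 ± 5.74 CPM differed 7.73-fold, a log2 difference of -2.95 ± 0.44, which was -3.55 without tumour 217. Gja5 stood at 43.9, 41.0 and 22.8 CPM in adjacent lung and at 13.8, 20.8 and 9.58 CPM in the tumours. Tumour 217 came close to adjacent 224, but the ranges of Gja5 did not meet. Its means of 35.9 ± 11.5 and 14.7 ± 5.65 CPM differed 2.44-fold (log2 difference -1.29 ± 0.41).

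Gjc1 was the third member below adjacent lung in every tumour. It stood at 33.4, 14.5 and 21.9 CPM in adjacent lung and at 9.04, 9.90 and 11.1 CPM in the tumours, again for mice 102, 217 and 224. The tumours were close to one another while adjacent lung was spread. Within the mice the log2 difference was -1.88 (102), -0.55 (217) and -0.97 (224), and over the means it was -1.21 ± 0.39, a 2.32-fold lower level. In AT2 cells all 3 were at background: Gjc1 had 0 counts in all 6 libraries, Gja4 at most 3 counts and Gja5 at most 3.

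Markers of vessels and muscle were lower in tumours as well, but so were those of most other cell types listed. The median log2 difference was -4.14 for club cells (4 of 5 markers passed in edgeR) and -3.96 for mesothelial cells (3 of 5). It was -1.41 for fibroblasts (0 of 7), -1.51 for T cells (1 of 6) and -1.27 for macrophages (0 of 7). Without tumour 102 the counts for club, mesothelial and T cells were 2, 0 and 0. AT2 markers went the other way, with a median of 1.63. Of 10 endothelial markers, 8 fell in tumours by edgeR's adjusted p, with a median log2 difference of -2.33, and their summed level was 774 to 852 CPM in tumours against 3517 to 6111 CPM in adjacent lung. That count was 5 without tumour 102 and 3 without tumour 224. Of 7 arterial markers, 3 fell (1 without tumour 102), with sums of 189 to 242 CPM against 531 to 966 CPM and a median of -0.94. Of 7 smooth muscle markers, 3 fell, with sums of 81.2 to 274 CPM against 286 to 1134 CPM and a median of -1.64. None of the 7 passed without adjacent 102, adjacent 217, tumour 102 or tumour 224, and 1 did without both libraries of mouse 217. The defining markers were above 0 in both tissues for these 3 lists. Heart muscle markers (8) summed to 38.0 to 367 CPM in adjacent lung and to 4.71 to 8.29 CPM in tumours, where 2 of them had 0 counts. Fewer cells of a type and less RNA per cell cannot be told apart in these bulk samples, and the part of cell make-up in the lower Gja4, Gja5 and Gjc1 was not tested.

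Epithelial markers moved as well. AT2 markers summed to 71348 to 223164 CPM in tumours and 20832 to 40972 CPM in adjacent lung, and 2 of 7 rose, with a median log2 difference of 1.63. With mouse as a block in edgeR 6 of the 7 rose, as with DESeq2, and 4 with limma-voom. Without any 1 adjacent library, tumour 224 or both libraries of mouse 217, 0 passed in edgeR, against 1 without tumour 102 and 3 without tumour 217. Of 7 ciliated-cell markers 6 fell, with sums of 9.49 to 32.0 CPM in tumours against 427 to 733 CPM in adjacent lung (3 fell without tumour 102). Of 7 AT1 markers, those of the flat alveolar cells, 3 fell, with sums of 606 to 2016 CPM against 1979 to 2846 CPM. The basal and squamous markers (5), genes of layered epithelia in which Gjb2 is also known, summed to 0.146 to 0.512 CPM in tumours and 0.351 to 1.16 CPM in adjacent lung. Krt5, Krt14, Krt6a, Trp63 and Dsg3 were thus low in both tissues, and 1 of the 5 had enough counts to test. The part of any of these lists in the connexin levels was not tested.

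**Figure D2:**
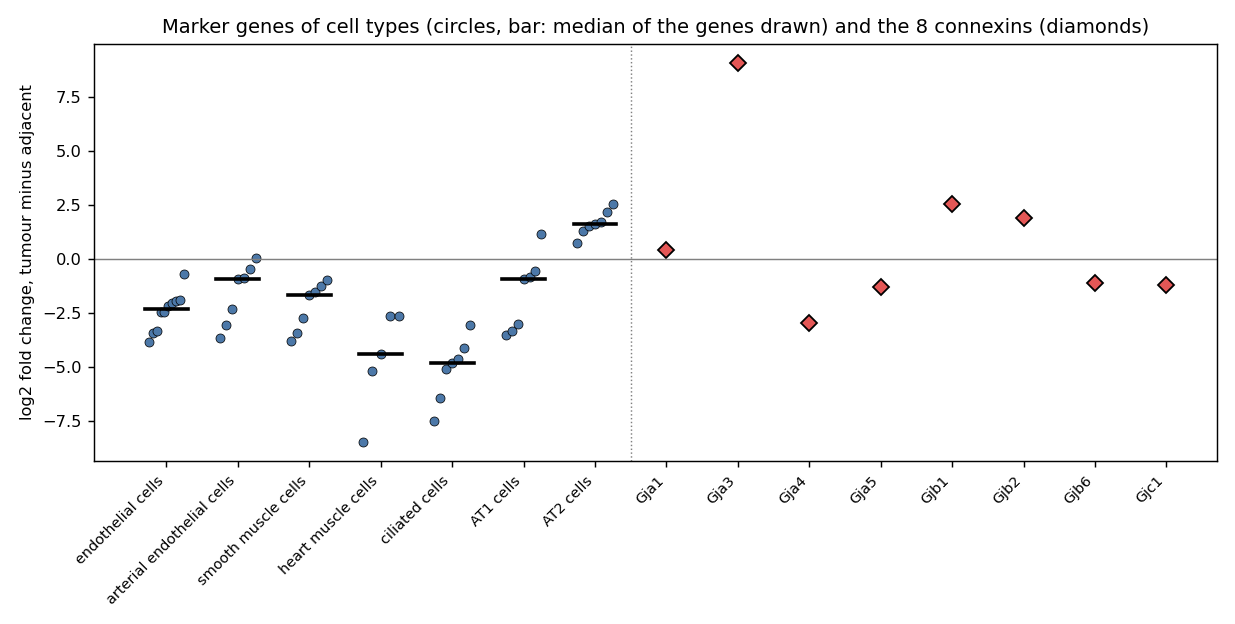
Log2 difference between tumour and adjacent lung for genes of cell-type lists (circles, with their median as a bar) beside the 8 member connexins (diamonds). Lists drawn are endothelial, arterial, smooth muscle, heart muscle, ciliated, AT1 and AT2 cells, and the other lists are not drawn. Genes not tested or with a mean of 0 in either tissue are left out. Endothelial markers centred on -2.33 and ciliated-cell markers on -4.79, and Gja4 stood at -2.95.

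The members were tested between knockout and wild-type AT2 cells. Their choice did not use that contrast, but it was made with their AT2 levels known. None of the 4 members with enough counts passed between knockout and wild type. Over all 14053 genes tested 0 passed with edgeR's quasi-likelihood test, or 0% of genes, and DESeq2 passed 1 and limma-voom 0. At an unadjusted p under 0.05 edgeR had 347 genes (2.47%), Gjb6 among them. Ranges were apart for 1 of the 4 members, Gjb6, where 8.30% of all genes tested had groups that did not overlap, 4.19% with knockout above and 4.11% with knockout below.

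Gjb6 stood at 30.6 CPM (176), 28.8 CPM (177) and 21.3 CPM (190) in wild-type AT2 cells and at 20.9 CPM (175), 18.7 CPM (179) and 19.8 CPM (191) in knockout cells. Every knockout library was below every wild-type one, by a narrow margin at wild type 190. The means were 26.9 ± 4.92 and 19.8 ± 1.07 CPM, a log2 difference of -0.44 ± 0.17, with an unadjusted p of 0.0260 and an adjusted p of 0.984 in edgeR. Over the 12 settings tried its log2 difference was -0.59 to -0.34 and its adjusted p at least 0.394.

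Gja1 stood at 148, 342 and 210 CPM in wild-type AT2 cells (176, 177, 190) and at 255, 215 and 199.8 CPM in knockout cells (175, 179, 191). Gjb1 stood at 15.2, 31.7 and 14.5 CPM in wild-type cells and 17.1, 17.5 and 14.7 CPM in knockout. Gjb2 stood at 7.29, 16.4 and 9.47 CPM in wild-type cells and 9.58, 11.7 and 9.65 CPM in knockout. In all 3 genes wild type 177, the library that stood apart, was the highest of all 6, and the groups overlapped. The log2 differences were -0.06 ± 0.25 for Gja1, -0.32 ± 0.27 for Gjb1 and -0.10 ± 0.28 for Gjb2, with adjusted p of 0.990, 0.984 and 0.989 in edgeR. Without wild type 177 the 3 differences turned positive, at 0.32, 0.15 and 0.30, with an adjusted p of 0.961 for each. A p above the threshold does not show that the groups are alike.

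Ordered by group mean, the members fell into different patterns, given here as a description because the lung and AT2 tables were normalised apart and the animals differed in age. Gja1 was highest in AT2 cells, at 233 ± 99.0 CPM in wild-type cells and 223 ± 28.3 CPM in knockout, and the AT2 groups overlapped. The knockout AT2 range lay above the tumour range (119 to 151 CPM). The wild-type AT2 range (148 to 342 CPM) overlapped that of the tumours, and tumour and adjacent overlapped. Gjb6 was likewise highest in AT2 cells and lowest in tumours. Gjb1 and Gjb2 had their highest mean in tumours, where they overlapped wild-type AT2 cells, and their lowest in adjacent lung, whose range lay below that of knockout AT2 cells. Gja4, Gja5 and Gjc1 ran from adjacent lung through tumour to AT2 cells with no overlap at either step. Gja3 was present in tumours alone above a trace.

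Among connexins outside the 8 members, Gjb5, known from skin and placenta, stood at 0.601, 2.85 and 1.73 CPM in adjacent lung and 2.54, 0.764 and 0.962 CPM in the tumours of mice 102, 217 and 224. Its ranges overlapped, and it did not pass (log2 difference -0.28 ± 0.78, edgeR adjusted p = 0.883). Gja6 did not differ beyond its error (0.02 ± 1.41, edgeR adjusted p = 0.996). Gja10, Gjc3 and Gjd3 had too few counts to test, and Gjd2, Gjd4 and Gje1 had 0 counts in every lung library.

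**Figure D3:**
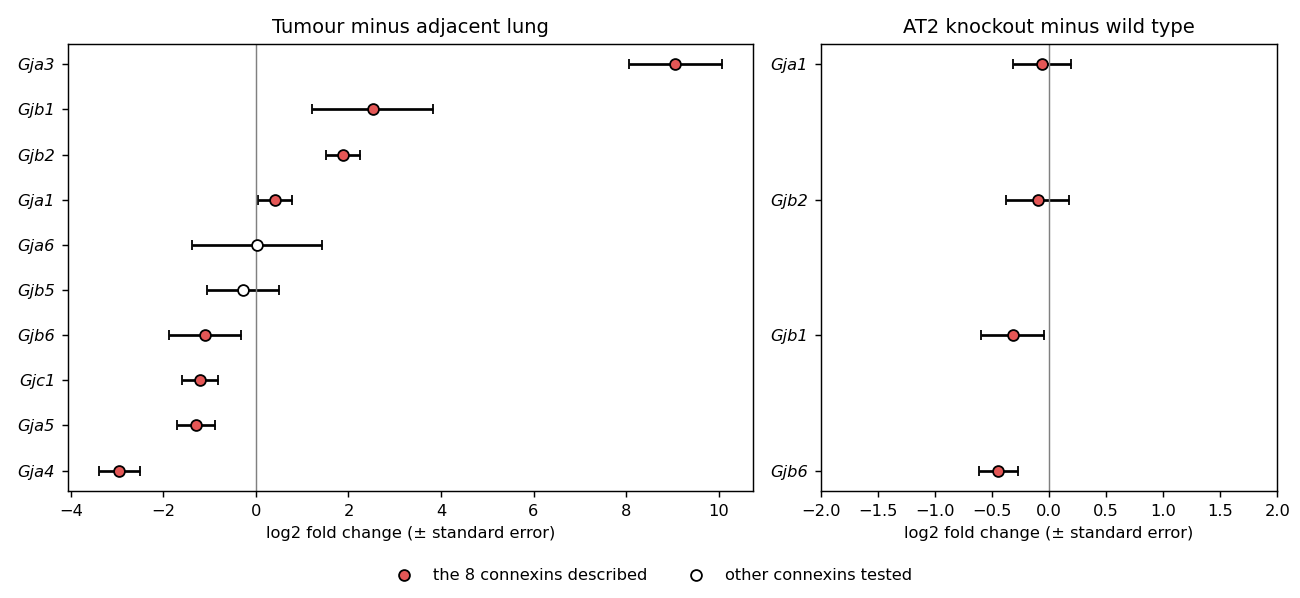
Log2 difference with its standard error for the connexins described with enough counts, tumour minus adjacent lung on the left and AT2 knockout minus wild type on the right; filled points are the 8 members and open points other connexins. On the left Gja3 lay highest at 9.07 and Gja4 lowest at -2.95, and on the right all 4 genes lay between -0.44 and -0.06.

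Levels can be set side by side between genes only per length, so CPM was divided by the length of each gene's exons in kilobases. On that scale adjacent lung was led by Gja4, at 49.9 ± 9.90 CPM per kb, which made up 58.5% to 66.7% of the sum over the 8 members. Gja1 followed with 10.3 ± 3.71 CPM per kb, then Gja5 with 6.25 ± 2.0 CPM per kb. In the tumours no member led every library. Gjb1 had 20.4 ± 18.6 CPM per kb (0.471% to 50.2% of the sum), Gja1 13.6 ± 1.77 (15.8% to 33.5%) and Gja3 8.14 ± 4.08 (5.00% to 26.8%). By exon length Gjb1 was the largest in tumours 102 and 217 and Gja1 in tumour 224, an order that depends on the length used. Gja4 made up 6.40% to 14.2% of the sum in tumours.

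In AT2 cells Gja1 was first with 22.7 ± 9.65 CPM per kb in wild type and 21.8 ± 2.76 in knockout, or 38.2% to 53.2% of the sum. Gjb1 (12.0 ± 5.72 and 9.61 ± 0.900), Gjb6 (10.1 ± 1.84 and 7.40 ± 0.400) and Gjb2 (4.59 ± 1.98 and 4.29 ± 0.512) followed in both genotypes. The sum over the 8 members was 66.1 to 86.1 CPM per kb in adjacent lung, 43.5 to 73.3 in tumours and 37.8 to 69.5 in AT2 cells. Gja1 depends most on the length used, since its combined exons span 10257 bases and its longest transcript 3889. With the longest transcript Gja1 was 36.0 ± 4.67 CPM per kb in tumours, the highest mean of the 8 there, and 58.4% to 72.6% of the sum in AT2 cells, while Gja4 still led adjacent lung with 45.8% to 51.1%.

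**Figure D4:**
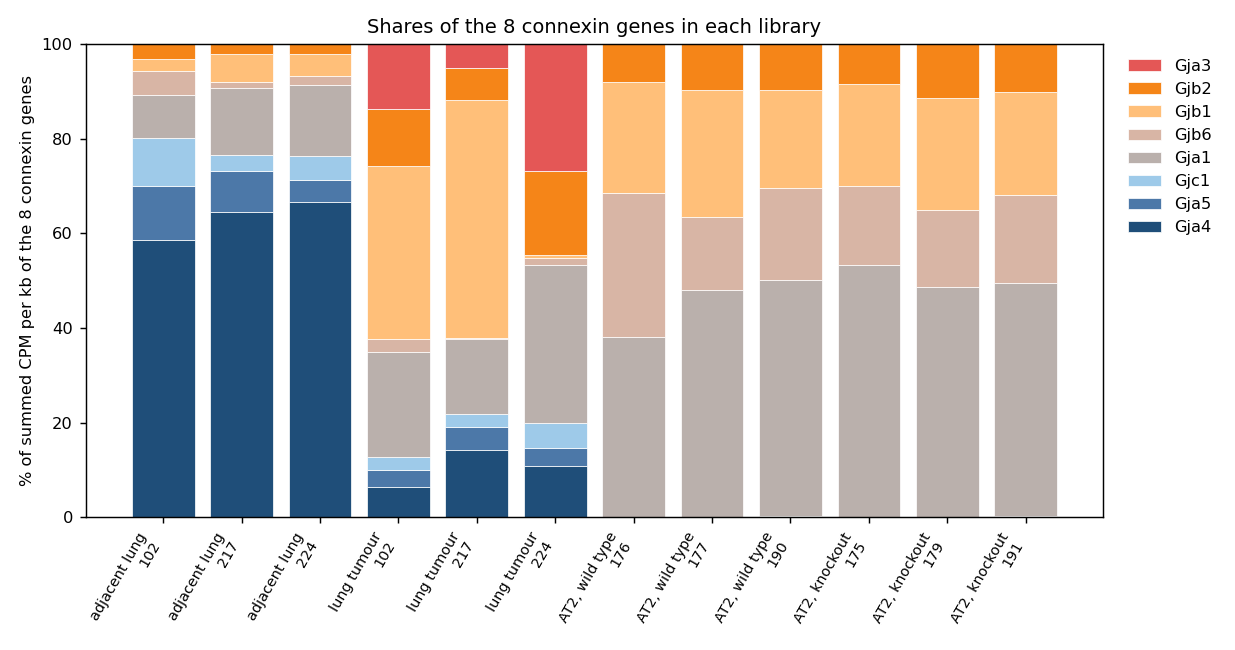
Share of each of the 8 members in their sum of CPM per kilobase of exon, 1 stacked bar per library, in percent. Gja4 filled 58.5% to 66.7% of the bars of adjacent lung, Gja1 was the widest band in the AT2 libraries, and Gjb1 ranged from 0.471% to 50.2% of the tumour bars.

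Some of these genes lie side by side. Gja3 (ENSMUSG00000048582, chr14:57034460-57058100), Gjb2 (ENSMUSG00000046352, chr14:57098600-57104702) and Gjb6 (ENSMUSG00000040055, chr14:57123303-57133611) follow one another on the minus strand of GRCm38 in GENCODE M21, with gaps of 40500 and 18601 bases. Their differences between tumour and adjacent lung were unlike in size and sign, at 9.07, 1.87 and -1.10 on the log2 scale. Of 6 other protein-coding genes within 300 kb, 5 were tested and 0 passed with edgeR, with log2 differences of -0.36 to 0.55 and adjusted p of at least 0.447. They were Pspc1, Zmym5, Zmym2, Cryl1 and Ift88, and Gm4491 had no counts.

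Gja4 (ENSMUSG00000050234) lies at chr4:127311421-127314039, on the minus strand. Of the genes within 300 kb of it, Sfpq, Dlgap3, Zmym6, Zmym1, Tmem35b and Gjb5 (chr4:127354809-127358181) did not pass, with edgeR adjusted p of at least 0.344. The remaining members are scattered: Gja1 (chr10:56377330-56402513), Gja5 (chr3:96904693-97077416), Gjb1 (chrX:101376378-101385629) and Gjc1 (chr11:102799579-102819700).

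**Figure D5:**
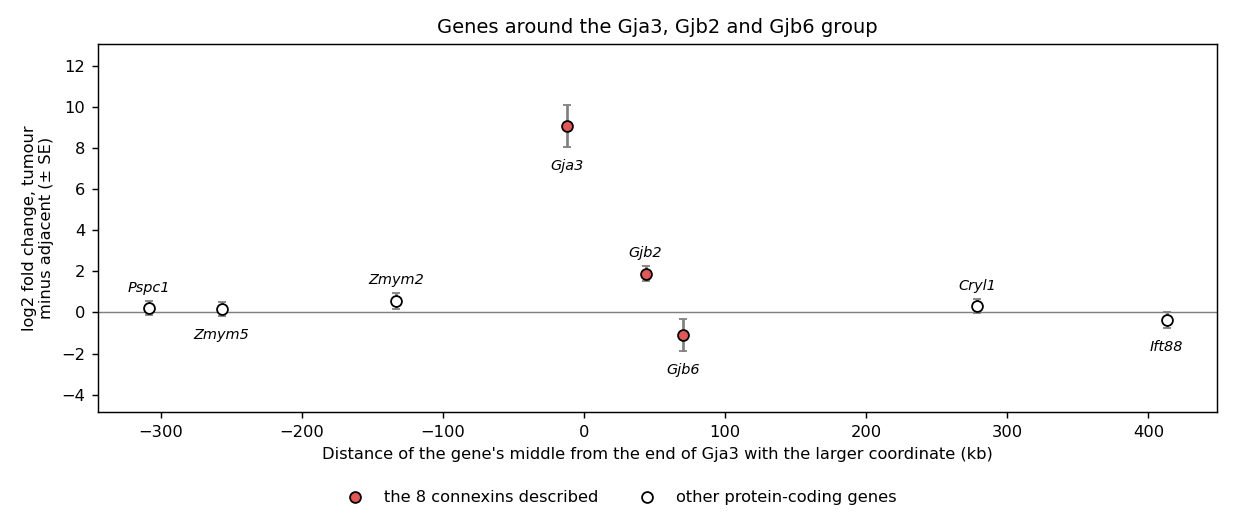
Log2 difference between tumour and adjacent lung for the protein-coding genes around the Gja3, Gjb2 and Gjb6 row, by distance in kb from the start of Gja3, with standard errors as bars. Filled points are the members, and the other tested genes lay between -0.36 and 0.55.

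Genes for proteins that bind, assemble or degrade connexins did not pass the test. Of 19 such genes, which include the scaffold Tjp1, the kinase Src and the ubiquitin ligase Nedd4, 0 passed with edgeR in the lung table, and the median log2 difference was -0.01. With DESeq2 2 passed as higher. With mouse as a block in edgeR 2 did, Src among them (adjusted p = 0.0399, against 0.0860 without the block). Among the pannexins, a separate family of channel proteins, 2 were tested and 0 passed. Panx2 had a log2 difference of 3.42 ± 0.89 and an edgeR adjusted p of 0.0514, or 0.0428 with the block, and Panx1 -0.53.

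Of 14 tested transcription factors known to act on connexin genes, 5 fell and 1 rose, and the median log2 difference was -1.76. With mouse as a block 6 fell and 0 rose. Tbx3, a T-box repressor known to hold Gja1 and Gja5 down in the heart, stood at 184, 82.3 and 82.4 CPM in adjacent lung and 6.24, 8.75 and 4.52 CPM in tumours of mice 102, 217 and 224. All tumours were far below all adjacent libraries, and Tbx3 fell by 4.16 ± 0.49 on the log2 scale (edgeR adjusted p = 0.00707). Klf4, a factor of endothelium and epithelium, stood at 279, 124 and 147 CPM in adjacent lung and 24.8, 12.4 and 16.9 CPM in tumours, and fell by 3.34 ± 0.46 (edgeR adjusted p = 0.00920). The other factors that fell are named with their values seen. Klf2, the flow-responsive factor of endothelium, fell by 3.22 ± 0.45 (edgeR adjusted p = 0.00992), and Tbx2, a relative of Tbx3, fell from 269.7 ± 46.1 to 43.0 ± 11.3 CPM, by 2.65 ± 0.34 (edgeR adjusted p = 0.00825). These 4 passed under all 14 settings. Tbx5, an activator of Gja5 in the heart, fell by 2.39 ± 0.52 (edgeR adjusted p = 0.0300). That call was lost without adjacent 102, adjacent 224, tumour 102, tumour 224 or both libraries of mouse 217, where the adjusted p reached 0.0993. In AT2 cells no factor passed.

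Genes whose log2 levels over the 6 lung libraries most resembled a member were found by the root mean square difference of centred log2 CPM among 14093 genes. Nearest to Gja3 were Meg3 (0.68), Rian (0.90) and Mirg (1.10), where the median gene was 4.30 away; these are non-coding transcripts of the imprinted Dlk1 region, and their log2 differences were 8.47, 7.31 and 8.66. The library kit does not mark strand, so reads from any transcripts there that overlap on opposite strands cannot be told apart. Nearest to Gja4 were Cr2 and Csf1 (0.19 each, median 1.70), and nearest to Gja5 Rdh12 (0.12) and Ap1s2 (0.13, median 0.99). Gjb2 was closest to Epn3 (0.09) and Mob3b (0.14, median 1.07), and Gjc1 to Numb (0.04) and Sema3f (0.12, median 0.88). Gjb1, with its split tumours, was closest to Cyp4a12a (0.61) and Rdh16f1 (0.68, median 2.56). Gjb6 was closest to Itpripl2 (0.29) and Uhrf2 (0.30, median 1.25) and Gja1 to Cd44 (0.07) and Glb1 (0.08, median 0.71). With 6 libraries in 2 tissues, many genes share such a profile, and the likeness is a description.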

How the data were processed

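Poly-A RNA of 12 mouse libraries was sequenced with a kit that does not mark strand, per the labels' protocols. The authors deposited raw gene counts, whole numbers without normalisation, in 1 table for the 6 lung libraries and another for the 6 AT2 libraries. The submitters' processing notes list the build GRCm38 and, with no roles, HISAT2, FastQC, DESeq2 1.28.1, StringTie 1.3.3b and Trimmomatic 0.39. No source used here names the counting step or its annotation. Identifiers were named with GENCODE M21 (55141 of 56262 in the lung table, 54409 of 54532 in the AT2 table), and unnamed ones held 0.0921% and 0.0289% of counts. The tables share 54186 identifiers and were normalised and tested apart.

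Tests used edgeR 4.0.16 (quasi-likelihood, TMM, its filter on low counts, Benjamini-Hochberg over all 19995 or 14053 genes tested, threshold 0.05) in R 4.3.3, tested on simulated data. Alternatives were DESeq2 1.42.0, limma-voom (limma 3.58.1), other scalings, no filter, omission of each library or of both libraries of mouse 217, and mouse as a block. The members, gene lists and tests were chosen with earlier results of these data known. Named were the members, other connexins, up to 3 genes of largest change per pathway list among those that passed, protein-coding genes within 300 kb of the Gja3 row and of Gja4, and the genes nearest in profile (log2 CPM, prior count 2, mean of at least 1 CPM). Klf2, Tbx2, Tbx5, Src, Panx1, Panx2, Cryaa and Hsf4 were named after their values were seen. Mouse numbers pair the lung samples, since same-numbered tissues come from the same animal, and their deviations from the group means correlated across genes (r = 0.273, 0.459 and 0.366 for mice 102, 217 and 224). Whether libraries of one group came from separate extractions beyond separate animals is not stated. Some genes that this rule would name are not reported here. Fold changes of genes near 0 depend on the prior count.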

Additional observations from a re-analysis of the deposited data

How the results depend on the processing

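In the comparison of tumour with adjacent lung, 2007 genes passed with edgeR (571 higher and 1436 lower), 3729 with DESeq2 and 847 without both libraries of mouse 217, and leaving out 1 library each gave 598 to 1854. With library totals alone as scaling 2233 passed, of which 17.6% were higher in place of 28.5%, and the median log2 difference of all genes was -0.18 in place of 0.04; no member changed sign. With the mouse as a replicate block 2980 passed, 1719 of them shared with the fit without it; with the block 2 members passed as lower in place of 1, and Src, Panx2, Uhrf2, Itpripl2 and Ap1s2 also passed. No paired analysis was possible for the AT2 cells because their groups share no mouse numbers. There 0 genes passed, against 17 without the filter on low counts and 1 with DESeq2, and 0 to 1 when 1 library was left out. For the settings that leave 2 libraries in a group, the spread is shared with the other group. No result changed sign among those called. The low counts of Gja3 in adjacent lung, the 3 libraries per group and the uncertain worth of 1 count in the lung table limit the size given for Gja3. The cause of these differences between settings was not tested.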
